A study of Mus musculus with 2 samples.

Results

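The nuclei described here are those of mouse eye tissue that carried transcripts of the ON bipolar genes Trpm1 and Grm6 and no transcript of Prkca, the protein kinase that marks rod bipolar cells. They were chosen by their counts: at least 200 genes, at least 1500 unique molecular identifiers (UMIs, each standing for 1 captured RNA molecule), under 10% mitochondrial UMIs, a sum of Trpm1 and Grm6 of at least 4 UMIs, and no UMI of Prkca or of the pigment cell genes Tyr, Dct, Mlana and Rpe65. The rule found 419 nuclei among the 17285 barcodes of the library, and they are called ON cone bipolar nuclei below. The study concerns heterozygous Prph2C213Y/+ mice, which carry a changed photoreceptor disc protein on a C57BL/6J background, and wild-type mice matched to them. The spatial assay (SeekSpace) reads the nuclear RNA of a thin frozen section together with the place of each nucleus on a chip. The labels give an age of 6 months, no treatment, and a section of 10 µm from 1 eye, and they do not say which genotype this library holds. With 1 library and no group, nothing here is a comparison of genotypes, no test was possible, and every interval (95%, exact) covers counting error only.

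Cone bipolar cells carry the signal of cones to the inner retina, and ON types depolarize when light comes on. In the dark, glutamate from photoreceptors binds mGluR6, the product of Grm6, on ON bipolar dendrites, and the activated Go protein keeps the cation channel TRPM1 closed. Light lowers glutamate, RGS proteins with Gβ5 shut off Go, and TRPM1 opens; rod bipolar cells use the same cascade, while OFF cone bipolar cells use kainate and AMPA receptors instead. ON cone bipolar cells express the transcription factor Isl1 like rod bipolar cells, and many cone bipolar cells express Scgn, the calcium binding protein secretagogin.

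The library held 55843593 UMIs over 32285 features. Of its barcodes, 16867 passed the limits on genes and mitochondrial UMIs, with a median of 1811 UMIs, and 9547 of these also had the 1500 UMIs that the rule asks for. The ON cone bipolar nuclei made up 2.48% of the 16867 (2.25 to 2.73%) and 4.39% of the 9547. They held 1606075 UMIs, and the median nucleus had 3332 UMIs (range 1551 to 15000) from 1665 genes. The tissue lay on the chip as 4 separate ring-shaped pieces, although the labels describe 1 section. Pieces 1 to 4 held 135, 91, 93 and 100 of the nuclei, or 3.11%, 2.14%, 2.52% and 2.19% of all those kept in each piece. Values are given by piece below to show their spread, but the pieces are not replicates of a condition.

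**Figure D1:**
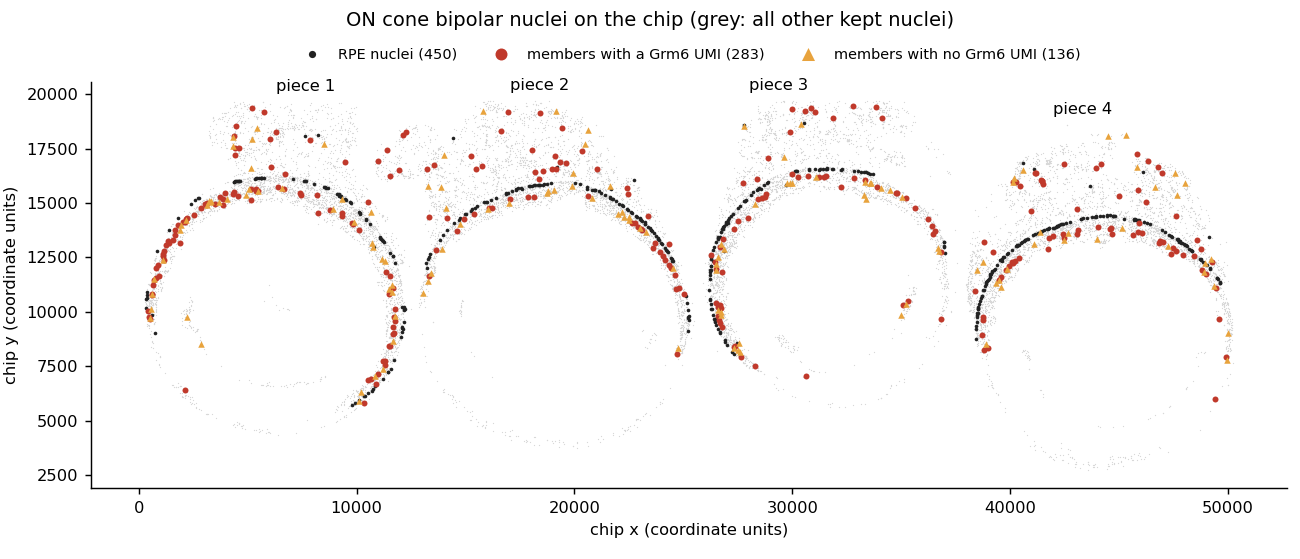
Position on the chip (x and y in coordinate units, whose length the sources used here do not give) of the 419 ON cone bipolar nuclei, drawn in red where Grm6 had a UMI (283 nuclei) and as orange triangles where it had none (136), over pigment epithelium nuclei in black and the other nuclei in grey. The selected nuclei lie along the rings of all 4 pieces.

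The neighbouring classes used for comparison were set by similar rules. Rod bipolar nuclei met the same limits but had at least 2 UMIs of Prkca; there were 790, with a median of 4206.5 UMIs. OFF cone bipolar nuclei had no Trpm1, Grm6 or Prkca UMI, at least 4 UMIs of the kainate receptor gene Grik1, at least 1 of Otx2 or a second gene not reported here, and none of the amacrine genes Gad1, Gad2 and Slc6a9; there were 75, with a median of 2920 UMIs. Levels are UMIs of a gene per 1000000 UMIs (CPM), pooled over the nuclei of a class. A gene is called higher or lower where the levels differ at least 2-fold, their intervals do not overlap, and the classes together hold at least 30 UMIs of it; genes used in the rules are never called.

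In the selected nuclei the sum of Trpm1 and Grm6 ran from 4 to 85 UMIs with a median of 11, Trpm1 alone from 0 to 77 with a median of 9, and Grm6 alone from 0 to 16 with a median of 2. Just inside the limit lay 48 nuclei with a sum of 4, and just outside it 40 nuclei with a sum of 3. Isl1 stood at 82.0 CPM (44.8 to 137.5) just inside and 25 (6.8 to 64.0) just outside, and Scgn at 158 and 194. Another 75 nuclei were left out for a single Prkca UMI; they had Isl1 at 148 CPM and Grm6 at 475. Grm6 stood at 111 CPM just inside the limit, far under the 644 CPM of all the selected nuclei.

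The label was checked against 2 genes that the rule did not use. Isl1, on mouse chromosome 13 (116298270 to 116309688, build GRCm38.p6), was 195, 238, 191 and 195 CPM by piece and 204 over all (182 to 227). That is close to the 212 CPM of rod bipolar nuclei (200 to 224), and the intervals overlap; OFF cone bipolar nuclei had 1 UMI, or 4.26 CPM, a ratio of 47.8 with an interval of 8.51 to 1892. Scgn, on the same chromosome (23953456 to 23991327), stood at 227, 266, 202 and 217 CPM by piece and at 228 over all (205 to 252). It was higher than the 105 CPM of rod bipolar nuclei, with every piece of the ON cone class above every piece of the rod bipolar class, and below the 367 CPM of OFF cone bipolar nuclei (293 to 453). Trpm1 itself lies on chromosome 7 (64153835 to 64269772) and Grm6 on chromosome 11 (50850369 to 50866208).

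Isl1 had a UMI in 44.6% of the ON cone bipolar nuclei and in 23.9% once each nucleus was thinned to 1500 UMIs. The same shares were 64.6% and 31.3% in rod bipolar nuclei, and 1.45% and 0.61% in 1307 rod photoreceptor nuclei (median 2335 UMIs), which should lack the gene and so give the background. Scgn had a UMI in 46.5% of the ON cone bipolar nuclei (26.3% thinned), against 29.7% (9.87%) of rod bipolar and 1.84% (1.22%) of rod nuclei. Both genes were detected in 91 of the 419 nuclei, Isl1 alone in 96, Scgn alone in 104, and neither in 128 (30.5%). These shares lie well above background, so the nuclei carry the label's markers as a class; a portion of the nuclei goes against the label in other genes.

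The label held only in part. Grm6 had no UMI in 136 of the 419 nuclei (32.5%, 28.0 to 37.2%), which entered on Trpm1 alone. Of these 136, 90 (66.2%, 57.6 to 74.1%) had at least 4 UMIs of Grik1, the kainate receptor subunit of OFF cone bipolar cells, against 14 of the 283 with Grm6 (4.95%, 2.73 to 8.16%). Isl1 was detected in 21 of the 136 (15.4%) and in 166 of the 283 (58.7%). Depth was much alike, with medians of 3585.5 and 3264 UMIs. As pooled levels, the nuclei without Grm6 had Isl1 at 50.7 CPM against 284, Gpr179 at 264 against 684, and Trpm1 at 1828 against 3680. They had Grik1 at 4828 CPM against 492, the kainate receptor auxiliary gene Neto1 at 1428 against 69.3, and the tachykinin receptor gene Tacr3 at 449 against 28.5. Scgn was level, at 223 and 231 CPM. Since Grm6 was part of the rule this split is a description, and results below are given for all 419 nuclei and, where a count of genes changes, for the 283 with Grm6.

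The boundary between the ON and OFF classes was also crossed from the other side. Among 235 nuclei that met every requirement of the OFF class other than the absence of Trpm1 and Grm6, 75 had none of these UMIs, 81 had 1 to 3, and 79 had 4 or more. Of the last 79, 70 had no Grm6 UMI. Trpm1 transcripts without Grm6 were thus found in nuclei with an otherwise OFF-like count of Grik1, and the 75 nuclei of the OFF class are the part of this group in which Trpm1 was at 0.

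**Figure D2:**
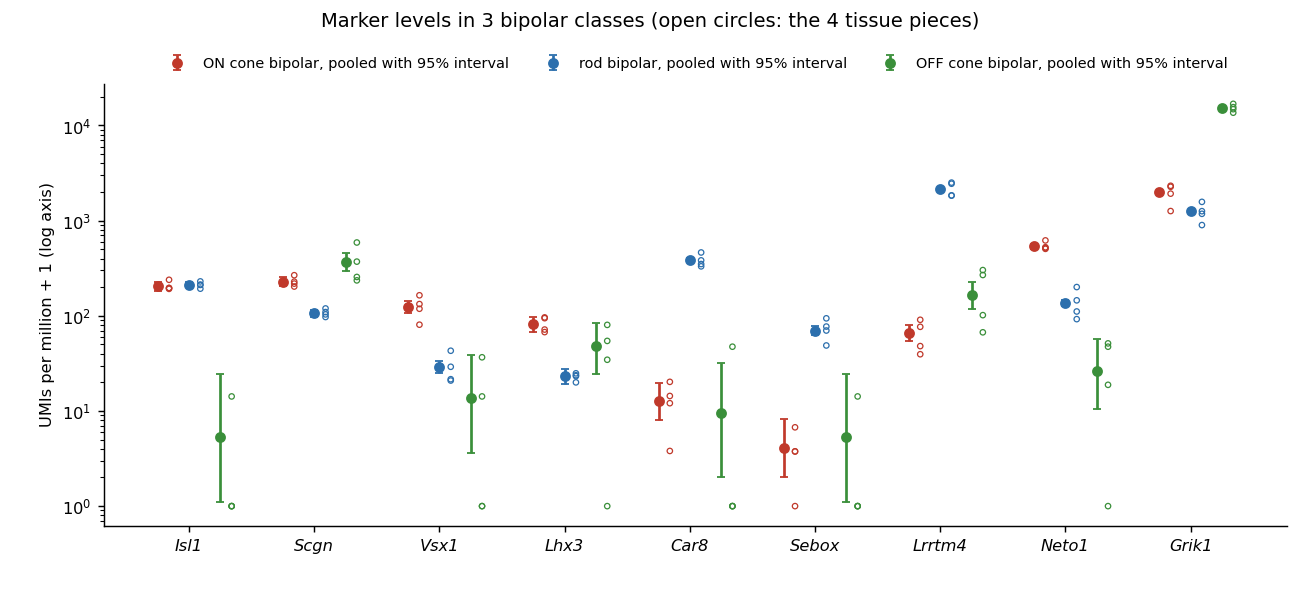
Level (CPM + 1, log axis) of Isl1, Scgn, Vsx1, Lhx3, Car8, Sebox, Lrrtm4, Neto1 and Grik1 in the ON cone, rod and OFF cone bipolar classes, as the pooled value with its 95% counting interval and, as open circles, the 4 pieces. Isl1 stands at 204, 212 and 4.26 CPM in the 3 classes, while Lrrtm4 stands at 65.4, 2147 and 166.

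The mGluR6 cascade was compared over 13 genes, of which Trpm1 and Grm6 belong to the rule. At the head of the cascade, the receptor gene Grm6 stood at 644 CPM in ON cone bipolar nuclei and 504 in rod bipolar nuclei, and the channel gene Trpm1 at 3043 and 4338; these levels come from the selection and support nothing. Gpr179, on chromosome 11 (97332109 to 97352356), encodes the orphan receptor that anchors the RGS complex at the dendritic tips. It measured 518, 591, 515 and 547 CPM across the pieces and at 540 over all (504 to 577), against 750 in rod bipolar nuclei (728 to 773) and 38.4 in OFF cone bipolar nuclei (17.5 to 72.8). It was thus 14.1 times as high as in the OFF class (7.38 to 30.9) and 1.39 times lower than in the rod bipolar class (1.29 to 1.5). Gpr179 had a UMI in 73.7% of the nuclei (48.7% thinned), against 2.30% (1.07%) of rod nuclei.

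The leucine-rich repeat proteins nyctalopin and LRIT3 help to place TRPM1 at the synapse. Nyx stood at 123 CPM (106 to 141) in ON cone bipolar nuclei, 74.8 in rod bipolar nuclei and 12.8 in OFF cone bipolar nuclei, where it rests on 3 UMIs and the ratio of 9.59 has an interval of 3.23 to 46.9. Lrit3 was near the limit of detection, at 3.11 CPM against 12.5 in rod bipolar nuclei, and was called lower. Of the Go subunits, Gnao1 (α) stood at 1515, 2069 and 456 CPM in the ON cone, rod and OFF cone classes, Gnb3 (β3) at 325, 320 and 72.5, and Gng13 (γ13) at 176, 186 and 21.3. Gnb3 and Gng13 therefore lay within the intervals of the rod bipolar class, and all 3 subunits were at least 3-fold higher than in the OFF class.

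The proteins that shut the cascade off were less alike. Gnb5, the β5 partner of the RGS proteins, stood at 229 CPM against 244 in rod bipolar and 38.4 in OFF cone bipolar nuclei. Rgs11 stood at 212, 173 and 72.5 CPM. Rgs7, the other RGS protein of the cascade, stood at 619 CPM (581 to 659) against 1727 in rod bipolar nuclei (1693 to 1761), 2.79-fold lower, and at 601 in OFF cone bipolar nuclei, which is level with the ON cone class. Of the genes for membrane anchors of RGS proteins, Rgs7bp stood at 214, 124 and 136 CPM, and Rgs9bp at 28.0, 38.4 and 42.6.

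Counted over the list, 11 cascade genes could be compared with rod bipolar nuclei, and 0 were higher and 2 lower (Lrit3 and Rgs7); over all 12132 genes tested, 2.16% were higher and 6.87% lower. Among the 283 nuclei with Grm6, 1 gene (Rgs7bp) was higher and the count of lower genes was also 2. Against OFF cone bipolar nuclei 10 could be compared, and 7 were higher (Gpr179, Nyx, Gnao1, Gnb3, Gng13, Gnb5 and Rgs11) and 0 lower; over all 7592 genes tested, 5.4% were higher and 3.86% lower. With the 283 nuclei these counts were also 7 and 0. The median log2 ratio over the list was -0.09 against rod bipolar nuclei (-0.07 over all genes) and 1.95 against OFF cone bipolar nuclei (0.07 over all genes). In the nuclei without Grm6, Gng13 stood at 105 CPM against 214 in those with it, and Nyx at 103 against 133.

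**Figure D3:**
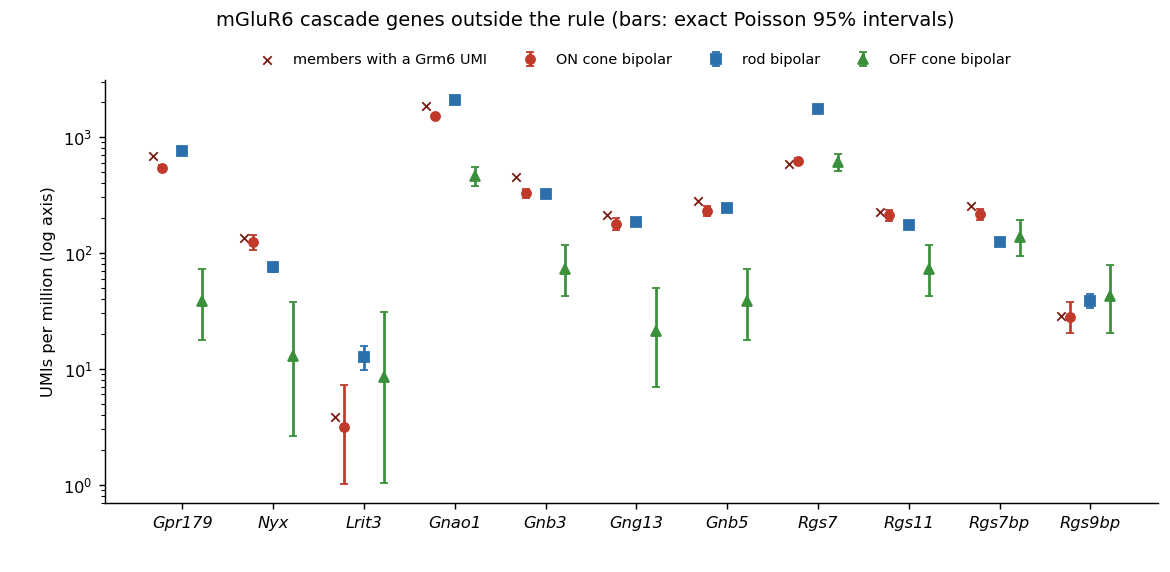
Level (CPM, log axis) of 11 genes of the mGluR6 cascade in ON cone, rod and OFF cone bipolar nuclei with 95% counting intervals; crosses mark the ON cone bipolar nuclei with a Grm6 UMI. Gpr179 stands at 540, 750 and 38.4 CPM, and Rgs7 at 619, 1727 and 601.

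The promoter windows of the cascade genes are shown because most of these genes were high in both ON classes and low in the OFF class. RefSeq (GRCm38.p6) start sites were matched for 10 of the 13 genes, and the 250 bases before each start were searched on both strands for TAATCC, read as GGATTA when it lies on the minus strand, the letters bound by the retinal homeodomain factors OTX2 and CRX. The 10 genes had 12 windows, since Trpm1 and Gng13 have a second start. Of these 12, 2 held the motif, the first window of Trpm1 and that of Gnb5, and the second window of Trpm1 (chr7:64185209-64185458) did not; over all 32851 promoter windows it was held by 2054 (6.25%). A match is only a run of letters, and no match says only that those letters are not in the window. The 2 windows with the motif and, for comparison, that of Grm6 follow, 5′ to 3′ on the plus strand, with the motif in capitals.
Trpm1, chr7:64153585-64153834: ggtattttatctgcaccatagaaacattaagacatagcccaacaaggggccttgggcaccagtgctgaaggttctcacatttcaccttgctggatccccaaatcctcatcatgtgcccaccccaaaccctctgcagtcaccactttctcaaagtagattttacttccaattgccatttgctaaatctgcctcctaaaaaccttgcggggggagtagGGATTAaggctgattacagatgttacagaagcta
Gnb5, chr9:75306038-75306287: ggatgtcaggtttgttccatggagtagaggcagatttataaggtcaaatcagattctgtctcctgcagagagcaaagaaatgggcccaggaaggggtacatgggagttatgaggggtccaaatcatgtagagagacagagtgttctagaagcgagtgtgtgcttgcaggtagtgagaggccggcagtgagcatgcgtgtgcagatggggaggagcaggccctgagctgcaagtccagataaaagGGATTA
Grm6, chr11:50850435-50850684: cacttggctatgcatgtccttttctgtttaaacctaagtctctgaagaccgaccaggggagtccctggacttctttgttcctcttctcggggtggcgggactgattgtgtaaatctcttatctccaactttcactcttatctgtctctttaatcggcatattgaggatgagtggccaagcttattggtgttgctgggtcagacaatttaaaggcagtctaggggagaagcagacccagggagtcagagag
In Gnb5 the motif ends at the last base before the start, in Trpm1 it lies further upstream, and the Grm6 window holds no match. The start that RefSeq's promoter table uses for Grm6 lies inside the gene's span given above, so this window is inside that span too.

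Compared with rod bipolar nuclei, the ON cone bipolar nuclei had higher levels of Hs3st4, Il1rapl2, Cdh9 and Vsx1, among others. Of 12132 genes, 262 were higher (2.16%) and 833 lower (6.87%); with the 283 nuclei with Grm6 the counts were 248 and 948, of which 179 and 661 were shared. The first 10 higher genes, taken by ratio among 168 with at least 50 UMIs and the same direction in all 4 pieces, had ratios from 5.73 to 4.32. Hs3st4, a heparan sulfate sulfotransferase, stood at 1334, 1638, 1577 and 1524 CPM in the pieces and at 1499 over all, against 329 in rod bipolar nuclei, whose pieces ran from 275 to 348. Il1rapl2, a synaptic adhesion receptor of the interleukin-1 receptor family, stood at 1219 CPM against 277. Cdh9, a classical cadherin, stood at 296 against 68.5. Grin3a, an NMDA receptor subunit, stood at 161 against 34.8, and the transcription factor Vsx1 at 124 against 28.2. The matrix gene Smoc2 stood at 45.5 against 9.57, and the predicted gene Gm48606 at 260 against 48.5. The other 3 were Gm48893, at 59.8 against 10.4 CPM, Sec1 and Medag. No piece of the ON cone class overlapped a piece of the rod bipolar class for these 10 genes, which the rule on direction in part ensures.

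The genes lower than in rod bipolar nuclei included the known rod bipolar markers. The first 10 of 709 by the same rule were Kcnt2, Cep112, 5730419F03Rik, Fam160a1, Gm19689, Gm45459, Wscd2, Lrrtm4, C330024D21Rik and Car8. Lrrtm4, a postsynaptic adhesion protein, stood at 89.8, 75.6, 47.0 and 38.5 CPM in the pieces and at 65.4 over all, against 2147 in rod bipolar nuclei, 32.8-fold lower (27.1 to 40.2). Cep112, a centrosomal gene, stood at 12.5 CPM against 564, which is 45.3-fold lower, and Wscd2 at 14.9 against 565. Car8, a carbonic anhydrase-like protein, stood at 11.8 against 384, 32.5-fold lower (20.7 to 54.0). Kcnt2, a sodium-activated potassium channel, had 1 UMI against 191, a ratio of 53.4 with an interval of 9.46 to 2118. Car8 was not used to choose either class, and the 75 nuclei with a single Prkca UMI had it at 14.0 CPM, near the ON cone level. No source states whether reads were counted by strand, so long non-coding transcripts such as 5730419F03Rik cannot be told apart from genes that overlap them.

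The excess of lower over higher genes came with more RNA of rods, Müller glia, amacrine cells and horizontal cells in the rod bipolar class. Summed over 8 rod markers, the level was 567 CPM in ON cone and 1332 in rod bipolar nuclei; the 4 pieces ran from 232 to 1019 and from 947 to 1915. Summed over 8 Müller glia markers it was 889 against 2028, over 8 amacrine markers 174 against 536, and over 5 horizontal cell markers 43.0 against 160. Of these lists 7 of 8 rod, 7 of 8 Müller, 7 of 8 amacrine and all 5 horizontal cell markers were called lower. The rod bipolar class also reached greater depth, with 87083 UMIs in its largest nucleus. Without the 5% of nuclei with the most UMIs in each class, 882 genes were lower and 328 higher. Kept to the retinal band described below, 485 were lower. The part of other cells' RNA in these counts was not tested.

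Other foreign markers were also present. The 7 pigment epithelium markers summed to 88.4 CPM (pieces from 38.5 to 118) and gave a UMI in 17.7% of the nuclei, with 24.6% of the UMIs in 5 nuclei. Rpe65, Best1 and Lrat among them had none, Rpe65 by the rule, and Rlbp1, which Müller glia also express, had 110 of the 142 UMIs. No UMI was found of C1qa, C1qb, P2ry12 and Ptprc of the microglia list, whose 7 genes summed to 14.9 CPM. Muscle markers summed to 482 CPM, with pieces from 55.3 to 1505, and 89.9% of these UMIs lay in 5 nuclei. Lens markers summed to 91.5 CPM with 83.7% in 5 nuclei. The muscle and lens sums were above those of rod bipolar nuclei, at 368 and 39.5 CPM, unlike the lists of the preceding paragraph. Ganglion cell markers summed to 48.6 CPM against 56.7 in rod bipolar nuclei, cone markers to 99.6 against 172 and vascular markers to 153 against 288.

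Compared with OFF cone bipolar nuclei, the ON cone bipolar nuclei had Reln, Hs3st4 and Il1rapl2 at high levels where the OFF class had almost none. Of 7592 genes, 410 were higher (5.4%) and 293 lower (3.86%); with the 283 nuclei with Grm6 the counts were 389 and 292, of which 332 and 231 were shared. Reln, which encodes the secreted protein reelin, stood at 1884, 2086, 1981 and 1898 CPM in the pieces and at 1954 over all, against 8.53 (2 UMIs) in OFF nuclei, a ratio of 229 with an interval of 63.4 to 1893. Hs3st4 and the sulfotransferase Chst9 had no UMI in the 75 OFF nuclei and stood at 1499 and 373 CPM, at least 117-fold and at least 29.2-fold higher than 3 UMIs in the OFF class would give. Lin7a, a synaptic scaffold, stood at 273 against 4.26 CPM (1 UMI; ratio 64.1, 11.4 to 2538). Plcb1, a phospholipase C, stood at 308 against 8.53 CPM (2 UMIs; ratio 36.2, 9.96 to 299). The remaining genes of the first 10 among 359 were Il1rapl2 (1219 against 17.1), Mgat4c, Dgkg, Isl1 and Rtn4rl2.

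The genes lower than in OFF nuclei were led by Kcnh8, a voltage-gated potassium channel, at 13.4, 2.8, 11.1 and 5.5 CPM in the pieces and 8.72 over all, against 315. Mrvi1 stood at 12.5 against 264 CPM and the secreted protein gene Tafa4 at 28.0 against 584. Nfib, a transcription factor, stood at 186 against 2724, the adhesion genes Dscam at 311 against 4011 and Lrrtm3 at 66.6 against 823. Cngb3, a subunit of the cone cyclic nucleotide-gated channel, stood at 23.7 against 251. Cadps2, Trpc7 and the glutamate transporter gene Slc1a7 completed the first 10 of 99. Rod markers summed to 371 CPM and Müller markers to 1360 in the OFF class, with 74.6% of the latter in 5 nuclei, and their part in these counts was not tested.

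The counts in the gene lists that follow stand against the shares over all genes, which were 2.16% higher and 6.87% lower against rod bipolar nuclei, and 5.4% and 3.86% against OFF nuclei. Of 18 transcription factors of bipolar cells compared with rod bipolar nuclei, 5 were higher (Vsx1, Lhx3, Irx6, Zfhx4 and Sox6) and 1 lower (Bhlhe23, which acts in rod bipolar development); a single lower gene among 18 is near the share over all genes. Against OFF nuclei, of 13 compared, 4 were higher (Vsx1, Isl1, Zfhx4 and Six3) and 1 lower (Lhx4). Among the members with the most UMIs were Zfhx4, at 840 CPM against 323 in rod bipolar and 269 in OFF nuclei, and Sox6, at 474 against 228 in rod bipolar and 929 in OFF nuclei. Lhx4 stood at 259, 177 and 601 CPM in the 3 classes; within the ON cone bipolar nuclei it was 414 in those without Grm6 and 178 in those with it. With the 283 nuclei, 3 factors were higher and 2 lower than in rod bipolar nuclei, and 3 were higher and 1 lower than in OFF nuclei. Of the 5 rod bipolar markers other than Prkca, 4 were lower, among them Car8, Vstm2b and Sebox, and the median log2 ratio of the list was -4.47 against -0.07 over all genes.

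Of 16 glutamate receptor genes compared with rod bipolar nuclei, 2 were higher (Gria2 and Neto1) and 6 lower (Gria3, Grik2, Grik3, Grik4, Grin2a and Neto2), where 2.16% and 6.87% of all genes were; with the 283 nuclei the counts were 1 and 7. The AMPA receptor subunit Gria2 stood at 324 CPM (297 to 353) against 139. The δ receptor gene Grid1 stood at 1932 CPM against 1484. Of 12 compared with OFF nuclei, 2 were higher, among them Neto1, and 1 lower (Gria1), against 5.4% and 3.86% of all genes. With the 283 nuclei, 1 was higher and 2 lower, and Neto1 was no longer among the higher genes. Neto1 is itself on the list of OFF cone bipolar markers. It stood at 1428 CPM in the nuclei without Grm6 and at 69.3 in those with it. Of 19 receptors for GABA and glycine, 3 were higher than in rod bipolar nuclei, among them Gabrb2 and Gabrr2, and 4 lower (Gabra2, Gabrg3, Glra2 and Glra3), against the same 2.16% and 6.87%; with the 283 nuclei the counts were 3 and 5. Gabrr2, a ρ subunit of the slow GABA receptors on bipolar axon terminals, stood at 877 CPM (831 to 924) against 424 in rod bipolar and 158 in OFF nuclei. Against OFF nuclei 14 could be compared, of which 1 was higher (Gabrr2) and 2 lower (Gabrr3 and Glra1), also with the 283 nuclei; 1 of 14 is near the 5.4% over all genes.

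Of 26 ribbon and release genes, 1 was higher than in rod bipolar nuclei (Unc13c, a vesicle priming factor, at 2064 against 762 CPM) and 1 lower (Cabp4), close to the 2.16% and 6.87% over all genes; with the 283 nuclei 1 was higher and 2 lower. Of 25 compared with OFF nuclei, 0 passed in either direction, where 5.4% and 3.86% of all genes did, and with the 283 nuclei 1 passed in each. Unc13c was 1748 CPM in OFF nuclei, near the ON cone level. Syt1 stood at 2251 CPM, Cacna2d4 at 1652 and Rims2 at 1559. Of 26 voltage-gated channels, 4 were higher than in rod bipolar nuclei (Cacna1h, Kcng4, Kcnb2 and Kcnd2) and 3 lower (Cacna1i, Kcnq3 and Kcnv2), against 2.16% and 6.87% of all genes; with the 283 nuclei the counts were 3 and 6. Of 24 compared with OFF nuclei, 3 were higher, among them Kcnb2 and Kcng4, and 5 lower, against 5.4% and 3.86%; with the 283 nuclei these were 3 and 8. Kcnb2, a delayed rectifier potassium channel, stood at 2225 CPM (2152 to 2299) against 785 and 273 in rod bipolar and OFF nuclei. Cacna1h, a T-type calcium channel, stood at 875 CPM against 399 and 1292. Gjd2, which encodes connexin 36, the gap junction protein that couples ON cone bipolar cells to AII amacrine cells, stood at 137 CPM (119 to 156) against 49.7 in rod bipolar and 68.2 in OFF nuclei.

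Of 44 adhesion genes compared with rod bipolar nuclei, 7 were higher (Cntn5, Slitrk1, Slitrk6, Tenm2, Cdh8, Cdh9 and Nxph1) and 7 lower (Cntn3, Cntn4, Cntn6, Lrrtm4, Flrt2, Sdk1 and Elfn1), against 2.16% and 6.87% of all genes. Tenm2, a teneurin, stood at 3674 CPM against 1415, and Cdh8, a cadherin, at 1098 against 265. Cntn5, a contactin, stood at 2144 CPM against 871, and against 102 in OFF nuclei, whose 4 pieces stood at 291, 16.8, 0 and 17.8. With the 283 nuclei with Grm6, 4 adhesion genes were higher and 11 lower. Of 39 compared with OFF nuclei, 11 were higher, among them Cntn5 and Tenm2, and 9 lower, among them Dscam and Lrrtm3, against 5.4% and 3.86%; with the 283 nuclei the counts were 10 and 14. Nxph1, a neurexophilin, is a gene whose direction rests on the nuclei without Grm6: it stood at 1288 CPM over all against 373 in rod bipolar nuclei, but at 3339 in those without Grm6 and 212 in those with it. Tacr3 and Neto1, of the 8 OFF cone bipolar markers, were likewise higher than in rod bipolar nuclei over all nuclei; with the 283 alone, 0 of the 8 were higher and 3 lower.

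The nuclei fell into 11 sub-clusters of 11 to 107 nuclei. Since the clusters were made from these genes, their levels describe them and test nothing. Sub-cluster 1, the largest with 107 nuclei, was led by the cartilage matrix gene Cnmd (393 CPM), Chst9 and Grin3a, and had Trpm1 at 5980 CPM, Grm6 at 1405, Isl1 at 425 and Scgn at 459. It also held the neuropeptide gene Cck at 163 CPM. Sub-cluster 2 (71 nuclei) was led by Igfn1 (1171 CPM), the sidekick adhesion genes Sdk2 (1845) and Sdk1 (2127), and Tacr1; Scgn was only 67.0 CPM there and Grm6 723. Sub-cluster 3 (65 nuclei) had Sox6 at 3022 CPM, Kcng4 at 285, the serotonin receptor gene Htr3a at 71.2 and Cabp5 at 318. All 4 type 5A markers of the list were over 2-fold higher there than in the other nuclei, so it is called type 5A-like. Both listed type 7 markers, Igfn1 and Vsx1 (229 CPM against 101), passed the same limit in sub-cluster 2. Vsx1 also passed it in sub-cluster 1 (212 CPM against 99.4). In sub-cluster 1, 2 of the 3 type 6 markers did. The 1 type 5D marker, Lrrtm1, did in sub-clusters 3, 10 and 11, on few UMIs. As these lists are short, the other sub-clusters are given by number.

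Adhesion genes separated the 3 largest sub-clusters. Cdh8 stood at 1773 CPM in sub-cluster 1 and at 10.6 and 21.9 in sub-clusters 2 and 3, and Cdh9 at 25.8, 882 and 701. Cntn5 stood at 3175, 10.6 and 9472 CPM in the same order. Hs3st4 stood at 74.6 CPM in sub-cluster 1 and at 4694 and 4397 in the others, and Sdk1 at 224, 2127 and 38.3. The pooled levels of these genes are thus averages over unlike nuclei. The smaller sub-cluster 10 (12 nuclei) shared Cabp5 (441 CPM), Cntn5 (3834) and 3 of the 4 type 5A markers with sub-cluster 3. It differed in the remaining type 5A marker, Sox6, at 27.6 CPM against 3022. The adhesion gene Kirrel3 stood at 33730 CPM against 27.4 and Hs3st4 at 0 against 4397. The type 5D marker Lrrtm1 stood at 138 CPM (5 UMIs) in sub-cluster 10, against 3.82 in all the other selected nuclei.

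The nuclei that go against the label gathered in sub-clusters of their own. In sub-clusters 4, 6 and 8 Grm6 was under 50 CPM. Together they held 89 nuclei (21.2%), 84 of them without a Grm6 UMI; of the other 52 nuclei without Grm6, 22 were in the small sub-clusters 9 and 10 (12 of 14 and 10 of 12 nuclei), against 1 of 107 in sub-cluster 1. Sub-cluster 4 (54 nuclei) had Grik1 at 4947 CPM, Neto1 at 3220, Nxph1 at 7396 and Tacr3 at 836, with Isl1 at 4.57 and Grm6 at 27.4. It also held ON type markers of the lists, the type 5B marker Chrm2 at 375 CPM and the type 6 marker Syt2 at 425. Both were over 2-fold higher than in the other nuclei. The Gpr179 level of sub-cluster 4, 370 CPM, was well above the 38.4 of the OFF class. Nyx at 137 CPM and Gng13 at 160 were near the 120 and 179 of the other selected nuclei. Sub-cluster 8 (15 nuclei) had Erbb4 at 3573 CPM, Grik1 at 12409 and the pacemaker channel gene Hcn4 at 1076, and Gpr179 at 38.4 CPM. Sub-cluster 6 (20 nuclei) had Grik1 at 2045, Pcdh17 at 729 and no Grm6 UMI. Sub-cluster 9 (14 nuclei), with Lrrtm3 at 1168 and Grik1 at 12684 CPM, had Grm6 at 64.0. Sub-cluster 10 was unlike these, with Isl1 at 331 CPM, Gpr179 at 524, Grm6 at 165 and Grik1 at only 27.6. There the lack of a Grm6 UMI in most nuclei did not come with a high level of Grik1. These sub-clusters are called by their genes and are given no cell type name.

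A further 3 sub-clusters carried markers of other cells. In sub-cluster 5 (30 nuclei) all 8 rod markers were over 2-fold higher than in the other nuclei, and they summed to 6459 CPM. It was led by Adarb2. Of the 3 listed markers of types 8 and 9, 2 passed the same limit there. Cpne9 stood at 190 CPM (19 UMIs in 4 nuclei) and Serpini1 at 220 (22 UMIs in 9 nuclei). Genes of the ON class were present too, with Grm6 at 1080 CPM, Isl1 at 210 and Gpr179 at 750. In sub-cluster 7 (20 nuclei, median 6296.5 UMIs) all 8 Müller glia markers were over 2-fold higher, with the glutamine synthetase gene Glul at 3289 CPM. In sub-cluster 11 (11 nuclei, median 9340 UMIs) all 8 amacrine markers were, with Gad1 at 397 CPM. No doublet caller was run, and whether these nuclei are pairs under 1 barcode was not tested; sub-clusters 7 and 11 together were 31 nuclei (7.40%). Each sub-cluster lay in all 4 pieces, except sub-cluster 9, which had none in piece 2.

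**Figure D4:**
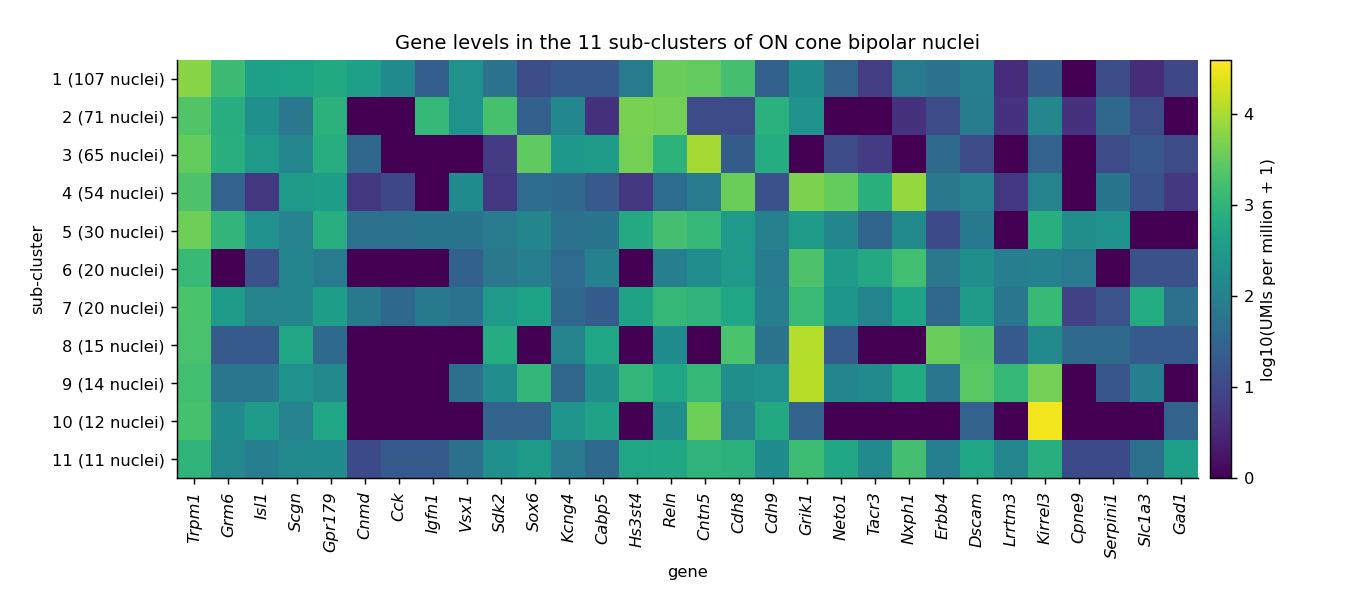
Level (log10 of CPM + 1, by colour) of 30 genes in the 11 sub-clusters of the ON cone bipolar nuclei, with the number of nuclei in each. Grm6 and Isl1 are dark (low) where Grik1 is bright (high) in sub-clusters 4, 6 and 8, with Grm6 at 27.4, 0 and 19.2 CPM.

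Depth in the retina was measured inward from the nearest pigment epithelium nuclei, in coordinate units. It could be measured for 324 of the 419 nuclei, and 210 of these (64.8%) lay in the retinal band, from 150 units outside the pigment epithelium to 1200 inside it. In the band the median depth was 368 units (349 to 395), with quartiles of 281 and 463, and by piece it was 410, 295, 336 and 448. Rod bipolar nuclei lay at 352, OFF cone bipolar nuclei at 415, amacrine nuclei at 450 and rod nuclei at 118. The piece medians of the ON cone and rod bipolar classes overlapped widely, since rod bipolar nuclei ran from 272 to 426. Nuclei with Grm6 lay at 383 units and those without at 357. The sub-cluster with amacrine markers, number 11, lay deepest of the 11, at 586 units over 6 nuclei.

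Among the nearest neighbours of the 210 nuclei, other ON cone bipolar nuclei were 2.18 times as frequent as in the band as a whole. Rod bipolar nuclei were 2.07 times, OFF cone bipolar nuclei 2.47 times and amacrine nuclei 1.63 times as frequent, and pigment epithelium nuclei 0.137 times. The ratios for the 3 bipolar classes lay close together; they were not tested.

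Many of the nuclei lay outside the ring of pigment epithelium. Of the 324, 113 (34.9%, 29.7 to 40.3%) lay more than 150 units outside the pigment epithelium, and by piece the share was 20.7%, 51.9%, 19.7% and 44.6%. Over all kept nuclei it was 36.6%, over rod bipolar nuclei 27.6%, over amacrine nuclei 9.4% and over pigment epithelium nuclei 2.8%. The nuclei outside had much the same profile as those in the band. Trpm1 stood at 3092 CPM outside and 3063 in the band, Isl1 at 190 and 205, and Grm6 at 761 and 601. Scgn stood at 272 and 201 and Gpr179 at 611 and 508. Median depth in UMIs was 3309 outside and 3415.5 in the band.

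**Figure D5:**
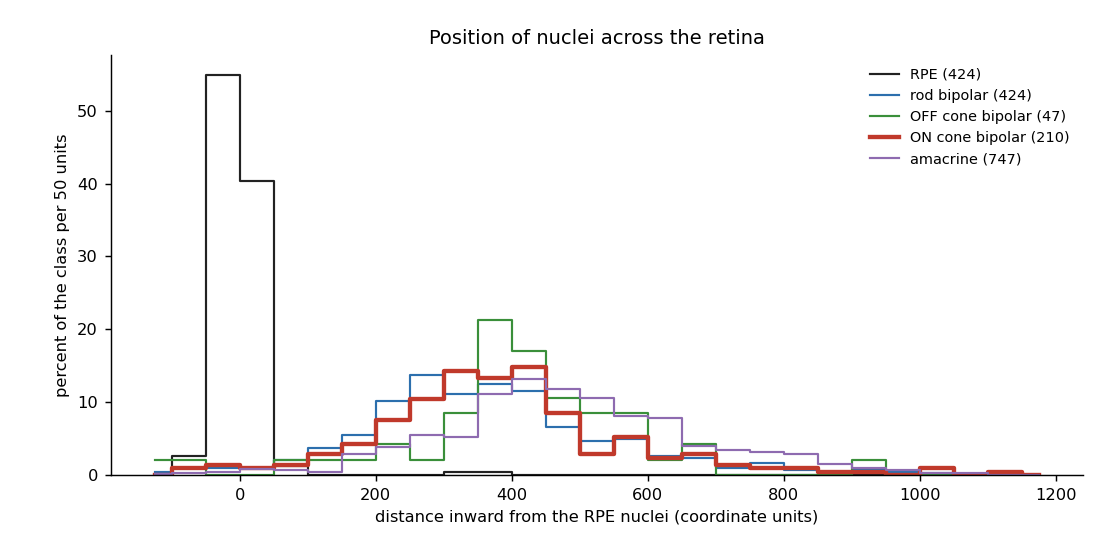
Share of each class (percent per 50 units) by distance inward from the pigment epithelium (coordinate units) for nuclei in the retinal band. ON cone bipolar nuclei have a median of 368 units, between rod bipolar nuclei at 352 and amacrine nuclei at 450.

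Few genes passed the limit set between the 4 pieces. That limit is stricter than the one used between classes, and genes with few UMIs could hardly pass it. A small share of genes passing thus does not show that the pieces are alike. Of 7046 genes tested within the ON cone bipolar nuclei, 48 (0.681%) had a highest piece at least 2-fold above the lowest between interval bounds, and in 17 of them over 50% of the UMIs lay in 1 nucleus. For the X-inactivation RNA Xist the levels in pieces 1 to 4 were 134, 196, 27.7 and 1156 CPM. The complement gene C4b stood at 3.82, 56.0, 52.6 and 5.49, high in pieces 2 and 3. Adarb2, an RNA editing enzyme relative, stood at 632, 445, 96.8 and 673 CPM, low in piece 3. It led sub-cluster 5 (4709 CPM against 199 in the other nuclei), of which 9, 5, 3 and 13 nuclei lay in pieces 1 to 4. The part of sub-cluster 5 in the Adarb2 levels by piece was not tested. The nuclear pore gene Nup155 stood at 34.4, 53.2, 2.77 and 33 CPM, also lowest in piece 3. Sdk1 stood at 264, 736, 551 and 519 CPM, lowest in piece 1. The labels put no piece in a group, and no comparison is drawn from these values.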

How the data were processed

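Nuclei of 1 spatial library of mouse eye tissue were analysed; the labels give it no genotype, so no groups were compared. The deposited matrix holds raw UMI counts per gene and barcode, made by the authors; build mm10 and the tools STAR, fastp and Seurat 4.1.1 come from the submitters' processing notes, which give no roles, and how barcodes were called as cells or strand was treated is not stated. The deposited positions are in coordinate units of unstated length, and pieces were separated at gaps between the rings.

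Classes were set by the count rules in the report. Counts were summed per class, divided by all UMIs of the class and multiplied by 1000000; intervals are exact Poisson for levels and exact Clopper-Pearson for shares. UMIs of 1 library share its making, so intervals cover counting error only. Where a class had no UMI, 3 counts over the class served as the floor. The members, lists and comparisons were chosen with earlier results of these data known, and the rod background class and the split by Grm6 were set after values were seen. Named genes are the 10 with the highest ratio in each direction among called genes with at least 50 UMIs in the higher class and the same direction in all 4 pieces, plus all cascade genes, the label's markers and up to 4 members of each other list by level; further genes were named after their values were seen. Sub-clusters used 1000 genes, 15 components, 12 neighbours and Leiden clustering at a resolution of 0.6 (igraph 0.11.9, Python 3.11.15, scipy 1.17.1); 9 to 11 were found at other settings. The calling of genes was tried on simulated pooled counts that varied by counting error only. That trial held no variation between nuclei and no RNA of other cells, so it cannot show how the calls fare with these. No doublet caller was run. Some genes are not reported here.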

Additional observations from a re-analysis of the deposited data

How the results depend on the processing

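No paired analysis was possible because the series here is 1 library with no replicate numbers. For 8 results, 63 alternatives were computed, 18 of them chosen after seeing the data; 48 moved the value by less than its interval or, for counts of genes, by under 1.5 times. The share of nuclei was 2.05% with Trpm1 plus Grm6 of at least 6, 1.61% with at least 3000 UMIs and 1.68% for nuclei with Grm6. Isl1 was 228 CPM at a sum of at least 6, 229 when thinned to 1500 UMIs and 284 in nuclei with Grm6; Scgn was 255 when thinned and 201 in the retinal band. With a ratio of at least 3, 88 genes were higher and 438 lower than in rod bipolar nuclei, and 162 lower than in OFF nuclei. Thinned, 389 were lower than in rod bipolar and 185 lower than in OFF nuclei. In the band 485 were lower than in rod bipolar nuclei, and with at least 100 UMIs 156 were lower than in OFF nuclei. The count higher than in OFF nuclei ran from 282 to 424 and the depth from 363 to 383 units. A ratio of 3 and a minimum of 100 UMIs give fewer genes by construction, and thinning and the band leave fewer UMIs; for nuclei with Grm6 the cause was not tested. The 75 OFF nuclei limit the precision of every comparison with them.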
